A study of Mus musculus with 24 samples.

Results

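Histone H3 trimethylated at lysine 4 (H3K4me3) was compared between mouse embryonic fibroblasts (MEF) carrying wild-type Prrx1 (WT) and MEF carrying the KI_PRRX1 genotype (KI). The 2 libraries are 2 of the 24 samples of the series, and the comparison covers all 16089 regions called in WT and all 13125 regions called in KI. A WT and a KI region were paired when they overlapped by at least 1 bp, and each protein-coding gene was then classed by the regions within 1 kb of its annotated transcription start sites (TSS). A promoter was lost when its WT region had no KI partner, gained when its KI region had no WT partner, and narrowed or widened when the ratio of KI to WT width lay at least 1.5-fold from the median ratio of all pairs.

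The study asked how the homeodomain factor Prrx1 shapes the chromatin of fibroblasts from embryos, tumours and healing wounds. MEF came from embryos at E10-13, WT or from 129S-Prrx1tm1Jfm/Mmmh mutant mice, and both libraries are labelled with the strain C57BL/6, the Abcam ab8580 antibody and immortalisation by the papillomavirus genes E6 and E7. The labels do not spell out KI; it was read as this mutant, in which the study describes lacZ inserted into the homeodomain of Prrx1, and whether the cells were homozygous is not given in the sources used here. A further MEF library, SG, had Prrx1 deleted with a guide RNA and is quoted beside WT and KI as a value only, because it shares the WT list as its control. The labels name both WT embryos and cells with the guide SgNS as WT, so whether WT and SG come from 1 culture and KI from another is not given, and where WT and SG differ from KI genotype and culture origin cannot be told apart. Each genotype has 1 H3K4me3 list and the number of embryos or cultures behind it is not given, so no p-value can be had, and genotype, embryo and culture cannot be told apart.

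H3K4me3 is deposited around the start sites of genes by SET1 and MLL methyltransferase complexes and is read by factors that help RNA polymerase II start transcription. Most active promoters carry a narrow region, whereas genes that define a cell type often carry a broad one that runs into the gene body. CpG-rich promoters attract the mark even at low expression. Prrx1 is a paired-related homeodomain factor of limb and craniofacial mesenchyme, and the Hox genes, which lie in 4 clusters, give mesenchymal cells their position along the body and limb axes.

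The KI list was the weaker. Scored against input by the authors' peak caller, its regions had a median −log10 p of 9.93 beside 28.6 in WT, and the strongest KI region reached 31.6 against 70.0 in WT. Median fold enrichment over input was 4.97 in WT and 3.59 in KI, and median width was 1720 bp and 1404 bp. Pairing joined the lists into 11788 groups of overlapping regions with a median width ratio, KI over WT, of 0.761, and 850 groups (7.21%) were wider in KI in base pairs. The quartiles of the ratio were 0.614 and 0.875. All widths below are therefore read relative to 0.761, as the log2 of the KI/WT ratio divided by that median. The number of reads behind each list is not part of it, so the depth is unknown.

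A total of 4236 WT regions had no KI region, which is 26.3% of the list (95% Wilson lower bound 25.7%; bounds and intervals here cover counting error over regions or genes only). Conversely, 417 KI regions had no WT region, or 3.18% (2.89% to 3.49%). Absence followed strength. In the weakest decile of the WT list 88.1% of the regions were absent from KI, in decile 4 it was 23.4%, and in the strongest decile 3 of 1609 regions (0.186%). Absence also differed by place. Of the 11630 WT regions within 1 kb of a protein-coding TSS 1393 were absent from KI, against 63.8% of those elsewhere, and the median −log10 p was 33.6 at the TSS and 6.76 elsewhere.

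**Figure D1:**
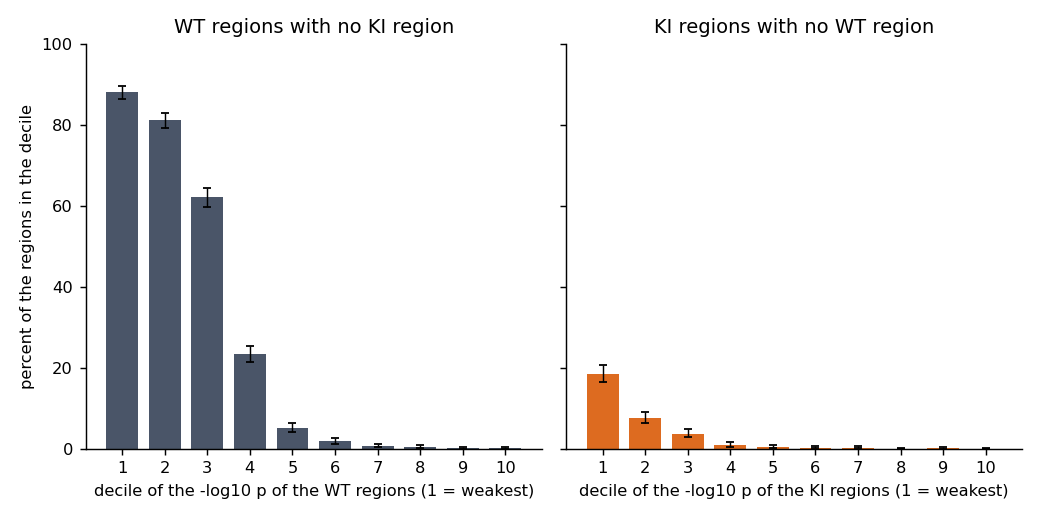
Percent of regions with no overlapping region in the other list, by decile of the −log10 p of the list (1 = weakest); left, WT regions absent from KI, right, KI regions absent from WT. Bars are shares with 95% Wilson intervals over regions; the WT shares run from 88.1% in the weakest decile to 0.186% in the strongest, and the KI shares from 18.5% to 0 of 1313.

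Of 22235 protein-coding genes, 12282 had a WT region at a TSS, and 1192 of them (9.71%) had lost it in KI. Of the 9953 genes without a WT region, 82 (0.824%) had gained one. Paired regions stood at 11047 genes, of which 1162 (10.5%) were narrowed, 235 (2.13%) were widened and 9650 lay within 1.5-fold of the median. A further 44 genes had regions in reach that did not pair, and 9870 had none in either list. These shares are the background for every gene list below. They also moved with strength. In the quintile of genes with the weakest WT regions 45.5% were lost, and in the strongest quintile 0 of 2448. From the weakest to the strongest quintile the narrowed share was 17.1%, 17.2%, 6.78%, 4.70% and 1.67%, lost genes counted in the total. A gene list mixes strengths, so the quintile of its median is only a rough guide. Only 35 lost genes had a WT region above the median −log10 p of the WT list, and 5 gained genes had a KI region above the KI median.

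Prrx1 itself, the gene carrying the mutation, kept its region. In WT it spanned 8628 bp with a −log10 p of 38.5, in KI 4558 bp with 13.3, and in SG 7341 bp with 27.6. The WT region ran from 165236674 to 165245301 on chromosome 1 (mm9) over the start of the gene, which is on the minus strand. Relative to the median the KI region was −0.53 on the log2 scale, short of the 1.5-fold line, and it passed that line when the median was taken within deciles of width (−0.63). A promoter mark outside the inserted sequence does not check the genotype. Of 44 other genes with a WT region within 5 Mb of Prrx1, 5 were lost, 5 narrowed and 0 widened. Its paralog Prrx2 kept a region close to the median, at 2453 bp in WT and 1810 bp in KI (−0.04).

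The 19 factors that the study lists as regulators of MEF, a list chosen on these samples and so no independent evidence, all kept a region in KI. Klf4, a Krüppel-like pluripotency and stress factor, narrowed most, from 5703 to 2028 bp (−1.10). The nuclear factor I gene Nfix narrowed from 6494 to 3265 bp (−0.60). The forkhead gene Foxp1 widened from 4648 to 5473 bp (0.63) and the E-protein gene Tcf4 from 5389 to 6192 bp (0.59). The other 14 lay within 1.5-fold, among them the AP-1 genes Fosl2 (8887 and 6999 bp), Junb (5173 and 3954 bp) and Jund (3574 and 2320 bp). The median of the list was −0.16, beside 0.02 over all 11047 genes.

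**Figure D2:**
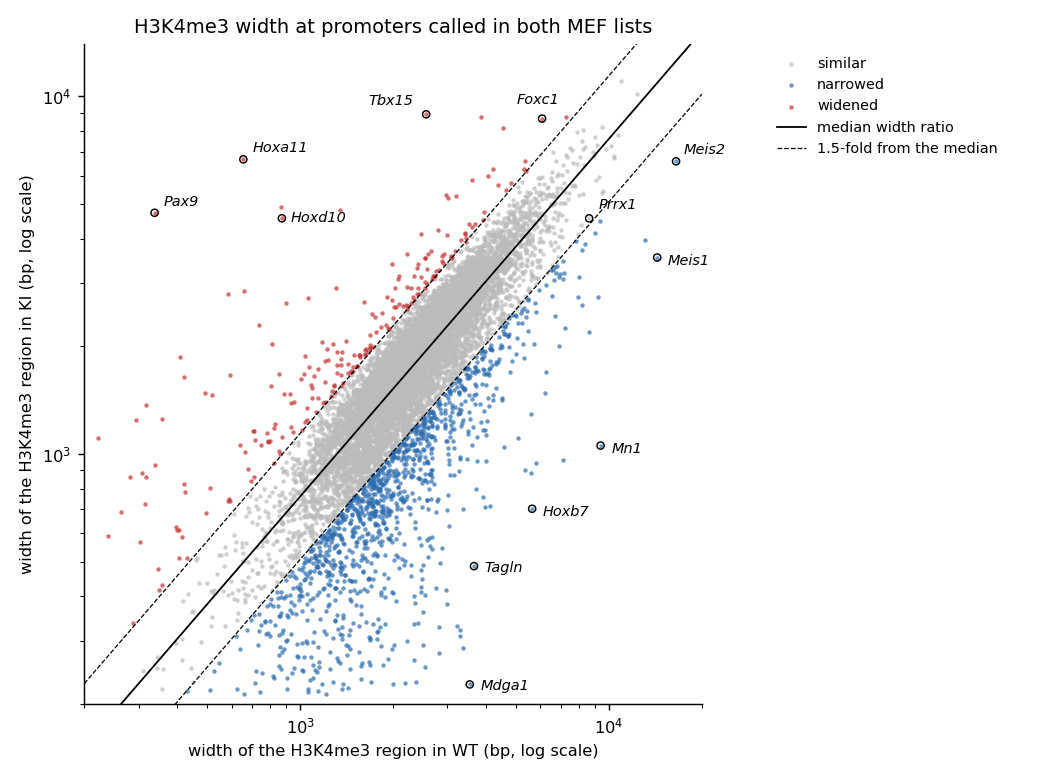
Width of the H3K4me3 region at each protein-coding promoter called in both lists, WT on the horizontal and KI on the vertical axis, both in bp on log scales; each point is a promoter, coloured by class. The solid line is the median ratio of 0.761 and the dashed lines lie 1.5-fold to either side; Pax9, Hoxa11 and Hoxd10 stand far above the lines, Mdga1, Mn1 and Tagln far below.

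The sequences upstream of 2 of the 10 strongest gained promoters are shown with each CG dinucleotide in capitals, because CpG-rich and CpG-poor promoters are marked in different ways. Each is the 250 bases upstream of the outermost TSS among the protein-coding transcripts of the gene, read 5′ to 3′ on the strand of the gene from the NCBIM37 assembly, which is mm9. They are Hoxd13 (chr2:74506117-74506366, plus strand) and Trim12a (chr7:111463978-111464227, minus strand).
Hoxd13: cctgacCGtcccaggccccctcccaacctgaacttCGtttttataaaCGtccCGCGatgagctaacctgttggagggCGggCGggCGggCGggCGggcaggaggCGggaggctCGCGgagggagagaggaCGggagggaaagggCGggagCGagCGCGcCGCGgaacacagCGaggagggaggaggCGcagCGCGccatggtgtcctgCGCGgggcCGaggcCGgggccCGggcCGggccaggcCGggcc
Trim12a: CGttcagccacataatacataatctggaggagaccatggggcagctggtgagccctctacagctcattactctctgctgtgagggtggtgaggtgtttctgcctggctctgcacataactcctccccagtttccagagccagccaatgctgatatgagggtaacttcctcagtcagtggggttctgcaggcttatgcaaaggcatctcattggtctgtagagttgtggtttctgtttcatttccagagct

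These windows hold 31 CG in Hoxd13 and 1 in Trim12a, so the gained class contains both CpG-rich and CpG-poor promoters. Over all lost genes the median was 12 CG per 250 bases, over gained genes 8, over narrowed genes 15, over widened genes 13, over genes within 1.5-fold 16, and over genes with no region in either list 3. Promoters with at most 5 CG made up 23.0% of lost and 26.8% of gained genes, beside 9.17% of genes within 1.5-fold and 40.0% of all. The letters TAATTA, a palindromic core of homeodomain binding sites that reads alike on both strands, occurred in 2.27% of lost, 2.44% of gained, 1.29% of narrowed and 1.70% of widened promoters, against 2.17% of those within 1.5-fold and 4.57% of all.

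Hox promoters were lost in each of the 4 clusters, chiefly HoxB and HoxC, and gained in HoxD. Of the 31 Hox genes with a WT region 15 were lost (48.4%, beside 9.71% of all genes). Of the 8 without one 3 were gained. The median WT −log10 p of the Hox genes was 19.5, beside 34.7 over all genes. That value lies in the weakest quintile of genes, where 45.5% were lost. With calls only above the median of the WT list, 4 Hox genes were lost. Among the 15 with a paired region 5 were widened and 2 narrowed. The share of each Hox gene and its 1 kb flanks that lay in H3K4me3 regions is given for the 3 MEF libraries in the plot of the 4 clusters, and it does not depend on the pairing rule.

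**Figure D3:**
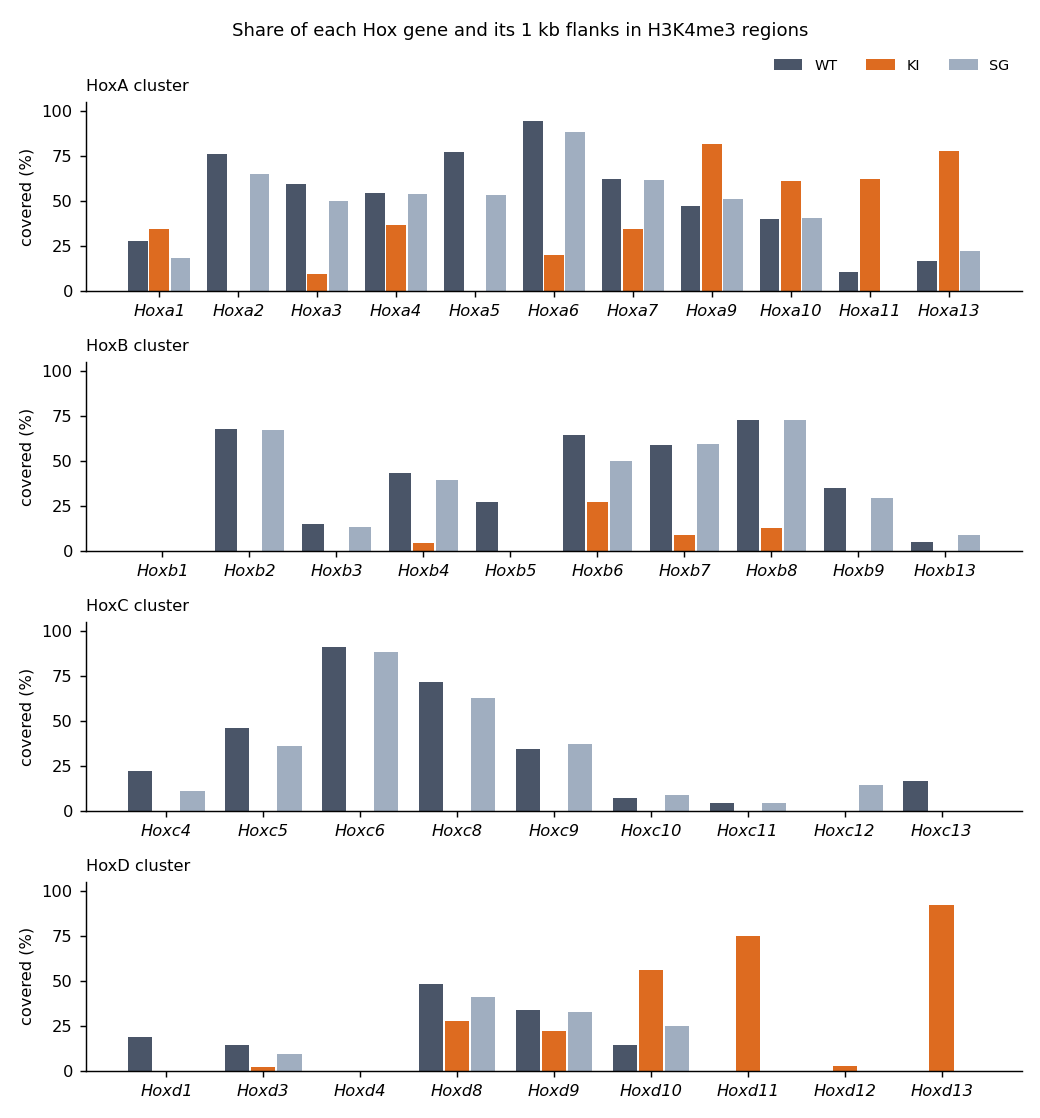
Percent of each Hox gene with 1 kb on each side that lay in H3K4me3 regions (vertical axis, 0 to 100), by cluster and paralog number, in WT, KI and SG MEF, 1 library each. KI bars are absent over the whole HoxC cluster and taller than WT and SG bars over Hoxa9 to Hoxa13 and over Hoxd10, Hoxd11 and Hoxd13.

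The HoxC cluster (chromosome 15, 102750534 to 102868274) carried 14 regions over 34499 bp in WT and 12 regions over 29300 bp in SG, and 0 regions in KI. All 8 HoxC genes with a WT region, Hoxc4 to Hoxc6, Hoxc8 to Hoxc11 and Hoxc13, were therefore lost, and with Gm17649 they formed the longest run of neighbouring lost genes in the genome. The most heavily marked was Hoxc6, whose WT region of 8479 bp had a −log10 p of 35.7, followed by Hoxc8 with 3903 bp and 38.1 and Hoxc5 with 2575 bp and 34.1. In SG the same promoters carried 8174, 3545 and 2043 bp. The WT regions of Hoxc4, Hoxc9, Hoxc10, Hoxc11 and Hoxc13 were weak, with −log10 p of 11.3 or less. Acetylation of H3 at lysine 27 (H3K27ac), a mark of active promoters and enhancers, had 8 summits in the cluster in WT, 11 in SG and 1 in KI.

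The HoxB cluster (chromosome 11) went the same way. It carried 38795 bp of H3K4me3 in WT, 31935 bp in SG and 4603 bp in KI, and 25, 21 and 1 H3K27ac summits. Hoxb2 was lost from a WT region of 4126 bp with a −log10 p of 38.2, Hoxb3 from 2242 bp with 22.6, Hoxb9 from 2510 bp with 26.0 and Hoxb13 from 267 bp with 3.54. Hoxb7 kept 703 of 5641 bp (−2.61). Hoxb6 kept 3008 of 4431 bp (−0.16), the one HoxB promoter near the median, although its −log10 p was 45.1 in WT and 5.04 in KI.

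In the HoxA cluster (chromosome 6) the KI/WT ratio of covered bases was 0.977 relative to the median, at 49593 bp in WT and 36855 bp in KI, but its parts moved in opposite directions. Hoxa2 and Hoxa5 were lost from WT regions of 6380 and 5610 bp. Coverage of Hoxa6 was 94.3% in WT and 20.2% in KI, and that of Hoxa3 was 59.7% and 9.53%. At the other end Hoxa11 widened from 655 to 6662 bp (3.74), with coverage of the gene of 10.7% in WT, 62.5% in KI and 0 in SG. Hoxa13 widened from 867 to 4890 bp (2.89), with 16.7%, 78.1% and 22.4%. Hoxa7 and Hoxa9 share paired regions that widened from 4833 to 5731 bp (0.64), which at Hoxa9 raised coverage from 47.5% to 82.0% and at Hoxa7 came with a fall from 62.5% to 34.5%. The Hoxa11 region in KI covers the start of the gene and overlaps its antisense transcript Hoxa11as, and a mark without strand cannot separate the 2.

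The HoxD cluster (chromosome 2) was the one in which H3K4me3 covered more bases in KI, 22019 bp against 11347 bp in WT and 8911 bp in SG. Hoxd13, the gene of the digits, and Hoxd12 share a KI region of 5814 bp with a −log10 p of 10.6. This region ends at 74512106, before the start of Hoxd12 at 74512986, and reaches Hoxd12 only through the 1 kb window. KI coverage with the 1 kb flanks was 92.2% at Hoxd13 and 2.53% at Hoxd12. Hoxd11 had a KI region of 6024 bp with 7.30, and the neighbouring homeobox gene Evx2 had 5895 bp with 6.89. None of the 4 had a region in WT or in SG, and they formed the longest run of neighbouring gained genes. Hoxd10 widened from 873 to 4559 bp (2.78). At the other end Hoxd1 was lost from 774 bp and Hoxd3 narrowed from 5597 to 885 bp (−2.27), while Hoxd8 (2581 and 1472 bp) and Hoxd9 (1522 and 993 bp) stayed within 1.5-fold. H3K27ac summits in the cluster numbered 9 in WT, 6 in SG and 14 in KI.

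Counted by paralog number in the HoxA and HoxD clusters, 0 of 7 genes of paralogs 10 to 13 were lost, 4 of them having a WT region to lose, 3 were gained and 3 widened, whereas of 13 genes of paralogs 1 to 9, 3 were lost, 0 gained, 1 narrowed and 2 widened. Over all 4 clusters 4 of the 12 genes of paralogs 10 to 13 were lost, of 8 with a WT region, and 11 of the 27 of paralogs 1 to 9, of 23. Prrx1 summits in WT numbered 0 in each of the 4 clusters. Fibroblasts from tumour and wound, which are WT for Prrx1, had 68110 and 60749 bp of H3K4me3 in HoxC.

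The following patterning genes were named for their change, while Tbx3 (−0.22), Tbx18 (0.46), Shox2 (−0.31), Gli3 (0.33) and Msx1 (0.37), also genes of limb or trunk mesenchyme, stayed within 1.5-fold. Pitx1, which specifies the hindlimb, was lost from a WT region of 4003 bp with a −log10 p of 31.1, and 3958 bp in SG. Tbx4, a hindlimb T-box gene, had no region in WT or SG and 850 bp in KI with 4.93. Tbx15, a T-box factor of limb and dorsal dermis, widened from 2560 to 8902 bp (2.19) and spanned 2416 bp in SG. Pax9, a paired-box gene of the pharyngeal pouches, sclerotome and teeth, widened most of all promoters, from 338 to 4724 bp (4.20), and spanned 400 bp in SG. Meis1 and Meis2, TALE cofactors of Hox proteins that mark the proximal limb, had the widest WT promoter regions of all paired promoters, at 14328 and 16496 bp, and narrowed to 3542 bp (−1.62) and 6578 bp (−0.93). Emx2, a homeobox gene of the scapula and the forebrain, came next with 13099 bp and narrowed to 3977 bp (−1.33). In SG Meis1, Meis2 and Emx2 spanned 9278, 21387 and 12642 bp. In wound WT fibroblasts they spanned 8289, 12893 and 6415 bp, and in tumour WT fibroblasts 5152, 6870 and 5222 bp. Their choice as the widest in WT favours a smaller width in any other list.

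Among the 29 paired and mesenchymal homeobox genes 19 had a WT region, of which 3 were lost and 5 narrowed, with 1 widened of the 16 paired and 1 gained. The lost share was 15.8%, beside 9.71% of all genes, and the narrowed share of the paired 31.25%, beside 10.5%. Quintile 2 of strength, where the list's median WT −log10 p of 28.8 lay, had 17.2% narrowed. Besides Pitx1 the lost genes were Alx1, a craniofacial factor, with 2600 bp and a −log10 p of 11.5 in WT, and Six2 with 316 bp and 3.81. Lhx9, a LIM homeobox factor, narrowed from 1746 to 472 bp (−1.49). Irx5 narrowed from 6722 to 3208 bp (−0.67) and Pitx3 from 1326 to 641 bp (−0.65). Msx2 was gained with 613 bp. The list's median was −0.28.

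Of the 34 mesenchymal and T-box factors 27 had a WT region, and 1 was lost (3.70%, beside 9.71% of all genes). Of 26 paired 4 were narrowed (15.4%, beside 10.5%) and 5 widened, with 2 gained and a median of 0.08. Foxf1a, a hedgehog target of visceral mesenchyme, narrowed from 5338 to 901 bp (−2.17) and Tbx2 from 1921 to 267 bp (−2.45). The forkhead genes of head, trunk and kidney mesenchyme widened, Foxc2 from 3611 to 5840 bp (1.09), Foxc1 from 6073 to 8661 bp (0.91) and Foxd1 from 2536 to 3541 bp (0.88). Snai2, a repressor of epithelial genes, widened from 3603 to 4301 bp (0.65). Hand2 was lost from 457 bp, and the gained genes were Tbx4 and Gata4, which carried 947 bp in KI and 1256 bp in SG. Twist1, Twist2, Zeb1 and Zeb2, regulators of mesenchymal identity, all stayed within 1.5-fold. In the 13 skeletal lineage regulators Sox6 was gained with 1101 bp, Sox5 was lost from 511 bp, Nfatc1 narrowed from 3816 to 1383 bp (−1.07) and Mef2c widened from 492 to 1485 bp (1.99), while Runx1, Runx2 and Sox9 stayed within 1.5-fold.

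The 10 lost promoters with the strongest WT regions had −log10 p from 34.1 to 41.0 in WT. Each carried a region in SG, 9 carried an H3K27ac summit within 1 kb in WT and 1 did in KI. Besides Hoxb2, Hoxc5, Hoxc6 and Hoxc8 they were Hspa12a, an atypical member of the heat shock 70 family (1658 bp, −log10 p 41.0), Ptgis, prostacyclin synthase (2223 bp, 40.8), the region shared by Chrd, a secreted BMP antagonist, and Thpo, thrombopoietin (1410 bp, 39.0), Sim2 (3006 bp, 37.7), Kctd15 (3422 bp, 35.2) and Gpr149 (6462 bp, 34.2). These promoters were among the stronger of the WT list, and no KI region overlapped any of them. The 35 lost genes above the WT median had H3K27ac summits at 31 in WT and at 2 in KI, and all 35 carried a region in SG. They include Pitx1, the receptor genes Flt1 (2136 bp), Adrb1 (5711 bp) and Tlr2 (1390 bp), and the secreted factors Serpinf1 (2438 bp) and Igfbp6 (3437 bp); the latter 5 were picked from the 35 after their values were seen.

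The 10 gained promoters with the strongest KI regions had −log10 p from 8.30 to 13.8 in KI, and 0 of 10 had a region in SG. Trim12a, of a family of antiviral TRIM genes with near-identical copies, led with 1166 bp and 13.8, and its region began just inside the gene. Rnf43, a membrane E3 ligase that removes Wnt receptors, followed with 4137 bp and 11.1. Then came Hoxd12 with Hoxd13, Atf7ip2 (439 bp, 10.2), Fndc3c1 (1234 bp, 9.86), Ripk4 (1519 bp, 9.83), Mab21l1 (5911 bp, 9.29), Itm2a (658 bp, 8.54), Btn2a2 (582 bp, 8.38) and 5730522E02Rik (1208 bp, 8.30). H3K27ac summits stood at 0 of the 10 in WT and at 6 in KI. With regions of −log10 p of at least 10, 4 of the 10 were still gained.

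The 10 promoters narrowed most among those of at least 2 kb in the wider list lay between −3.57 and −2.76 on the relative log2 scale. Mdga1, a cell adhesion gene, went from 3543 to 227 bp (−3.57), with 3225 bp in SG. Zic2, a zinc finger factor of the neural tube, went from 3356 to 287 bp (−3.15), and Igfbp4, which binds insulin-like growth factors, from 3305 to 311 bp (−3.02). Fgf9, Ptgs1, 8430427H17Rik, Nqo1, Thbs2, Cited1 and Mn1 completed the group, Mn1 with the widest WT region at 9396 bp against 1056 bp in KI. H3K27ac summits stood at 7 of the 10 in WT and at 1 in KI. The KI remnants were short, 227 to 1056 bp, with −log10 p of 8.09 or less, so 0 of the 10 were called narrowed with regions of −log10 p of at least 10.

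The 10 promoters widened most among those of at least 2 kb in the wider list lay between 1.95 and 4.20. After Pax9, Hoxa11, Hoxa13 and Hoxd10 came Lrrc7 (585 to 2798 bp, 2.65), Cd80, a costimulatory ligand (660 to 2851 bp, 2.51), Bhlhe22 (1347 to 4804 bp, 2.23), Tbx15, Hs3st1 (734 to 2288 bp, 2.03) and Hgf, hepatocyte growth factor (900 to 2639 bp, 1.95). H3K27ac summits stood at 2 of the 10 in WT and at 8 in KI. Apart from Tbx15, whose WT region had a −log10 p of 39.5, these WT regions were weak, with 3.54 to 11.5. Of the 10, 3 were still widened with lists of equal size and 1 with regions of −log10 p of at least 10.

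In base pairs 987 WT regions and 320 KI regions were over 4 kb. Of 921 paired WT promoter regions over 4 kb, 691 stayed over 4 kb in KI after the KI width was divided by 0.761, and 606 did when the median was taken by decile of width. The 5 widest were Meis2, Meis1 and Emx2, which narrowed, and Tnrc18 and Tsc22d2, which did not: Tnrc18 spanned 12338 bp in WT and 10162 bp in KI (0.11), and Tsc22d2 10933 and 11047 bp (0.41). At the 1.5-fold line the promoters just inside the narrowed class were Dtnbp1 and Cstf2t (both −0.59) and just outside Kdr (−0.58); just inside the widened class were Qsox1 and Ythdf3 (both 0.59) and just outside Rnf32 and Nmral1 (both 0.58).

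Genes of the extracellular matrix kept most of their regions. Of 46 matrix genes 38 had a WT region and 5 were lost (13.2%, beside 9.71% of all genes). Of 33 paired 3 were narrowed (9.09%, beside 10.5%) and 2 widened. In addition 1 was gained, and the median was 0.08. The fibrillar collagen genes Col1a1, Col1a2 and Col3a1 and the fibronectin gene Fn1 stayed within 1.5-fold. Dcn, the small proteoglycan decorin, was lost from 1956 bp with a −log10 p of 16.3, and Loxl2, a collagen cross-linking oxidase, from 1297 bp with 17.7. Postn, Spp1 and Eln, coding for periostin, osteopontin and elastin, were lost from WT regions of 1929, 1413 and 825 bp with −log10 p of 6.74 or less. Thbs2 narrowed from 3213 to 331 bp (−2.88), Fbln1 from 1611 to 573 bp (−1.10) and Sparc from 6805 to 3355 bp (−0.63). Col5a2, a chain of collagen V, widened from 4542 to 8144 bp (1.24), and Ogn from 1032 to 1674 bp (1.09). Col14a1 was gained with 362 bp.

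The contractile genes of myofibroblasts were lost or narrowed where they changed, but widening was rare over all genes (2.13%). Of 21 with a WT region 3 were lost (14.3%, beside 9.71% of all genes). Of 18 paired 5 were narrowed (27.8%, beside 10.5% over all genes) and 0 widened, and the median was −0.26. In quintile 3 of strength, where the list's median WT −log10 p of 33.6 lay, 6.78% were narrowed. With so few genes widened anywhere, 0 of 18 does not set the list apart. Tagln, the smooth muscle protein transgelin, narrowed from 3656 to 486 bp (−2.52). Zyx (−0.77), Cnn2 (−0.72), Tpm2 (−0.66) and Myh9 (−0.64) narrowed less. Lmod1, Synpo2 and Actg2 were lost from weak regions with −log10 p of 7.35, 6.45 and 4.47. Acta2, which codes for smooth muscle actin, and the coactivator gene Mkl1 stayed within 1.5-fold.

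In the TGF-β list all 30 genes had a WT region, and the ligands Tgfb1, Tgfb2 and Tgfb3, the receptors Tgfbr1 and Tgfbr2 and Smad2 to Smad7 all stayed within 1.5-fold. Lost were Ltbp2, a latent TGF-β binding protein of microfibrils (3733 bp, −log10 p 24.2), the target Tgfbi (605 bp, 10.6) and the co-receptor Eng (387 bp, 5.98). Smurf1, a ubiquitin ligase for Smads, narrowed from 3752 to 1115 bp (−1.36), and Acvr1b from 2283 to 1157 bp (−0.59). Of the 30 genes 3 were lost (10%, beside 9.71% of all genes). Among 27 paired 2 were narrowed (7.41%, beside 10.5%), and the list's median was 0.03.

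In the BMP list 4 of 18 genes with a WT region were lost (22.2%, beside 9.71% of all genes). Of 14 paired 3 were narrowed (21.4%, beside 10.5%). The list's median WT −log10 p was 28.3, in quintile 2 of strength, where 17.2% were narrowed. Besides the antagonist Chrd the lost genes included the ligands Bmp6 (2431 bp, −log10 p 13.1) and Gdf6. Nog, which codes for the antagonist noggin, narrowed from 2597 to 515 bp (−1.94) and spanned 5713 bp in SG. The target genes Id4 (−1.23) and Id2 (−0.59) narrowed, while Id1, Id3 and the receptors Bmpr1a and Bmpr2 stayed within 1.5-fold. The median was −0.20.

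In the Wnt list 7 of 28 genes with a WT region were lost (25%, beside 9.71% of all genes). Of 21 paired 6 were narrowed (28.6%, beside 10.5%), and the median was −0.30. The lost genes were the ligands Wnt2, Wnt2b, Wnt4, Wnt7b and Wnt11 and the secreted inhibitors Sfrp1 and Sfrp4. Their WT widths ran from 298 bp (Sfrp4) to 2484 bp (Sfrp1), with −log10 p of 10.7 or less, beside a list median of 22.5. That median lies in the weakest quintile of all genes, where 45.5% were lost and 17.1% narrowed. Axin2 and Lef1, targets of β-catenin, narrowed from 2655 to 877 bp (−1.20) and from 2577 to 746 bp (−1.39). Wnt5a (−0.68), Wnt5b (−0.61), Dkk2 (−0.76) and Tcf7 (−1.06) narrowed as well. Sfrp2 widened from 1176 to 2052 bp (1.20), the agonist Rspo2 from 3203 to 5254 bp (1.11), and Wnt10b was gained with 788 bp. The receptors Fzd1, Fzd2 and Fzd7 and Lrp5 and Lrp6 stayed within 1.5-fold.

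In the FGF, PDGF and hedgehog list 7 of 28 genes with a WT region were lost (25%, beside 9.71% of all genes). Among them were the ligands Fgf5, Fgf18, Pdgfb and Pdgfd and the hedgehog target Hhip, these 5 with WT −log10 p of 9.23 or less. The narrowed share of the paired genes was 33.3%, beside 10.5% of all genes. The list's median WT −log10 p of 34.8 lay in quintile 3 of strength, where 6.78% were narrowed. Of 21 paired, 7 were narrowed, including Fgf9 from 2364 to 230 bp (−2.97), Fgf2 from 1716 to 522 bp (−1.32), Spry1 from 2584 to 956 bp (−1.04), Igf1 from 2946 to 1179 bp (−0.93) and Pdgfra, a receptor of mesenchymal progenitors, from 5822 to 2493 bp (−0.83). Hgf and Fgf7, stromal ligands for epithelial receptors, widened, Fgf7 from 7267 to 8727 bp (0.66). The median was −0.09.

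**Figure D4:**
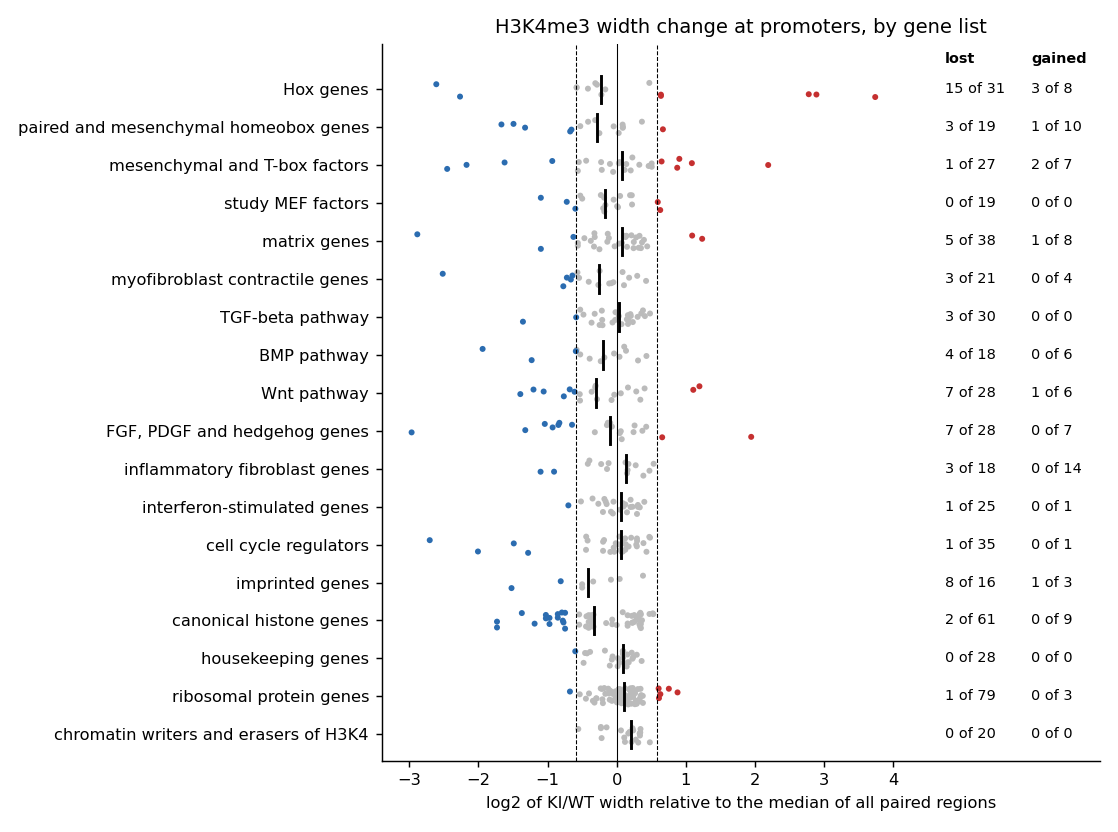
Relative width change, as the log2 of the KI/WT width ratio over the median ratio, for the genes with a paired region in 18 gene lists; each point is a gene, coloured by class as narrowed (blue), widened (red) or within 1.5-fold (grey), the bars are list medians and the dashed lines the 1.5-fold limits. The columns give genes lost of those with a WT region and gained of those without; the Hox list has points out to 3.74 and 15 of 31 lost, and the list of H3K4 writers and erasers has all 20 points between the dashed lines.

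Imprinted genes, which are expressed from 1 parental allele, were lost in 8 of 16 cases (50%, beside 9.71% of all genes). Of 8 paired 2 were narrowed (25%, beside 10.5%), with 1 gained and a median of −0.42. Dlk1, a notch-like inhibitor of adipogenesis, was lost from 2092 bp in WT, its neighbour Meg3, a long noncoding RNA, from 2383 bp with 18.3, and Ndn, which codes for necdin, from 1188 bp with 18.5. The same promoters had 2241, 1871 and 1202 bp in SG. Mest, Cdkn1c, Phlda2, Nap1l5 and Nnat were lost from WT regions with −log10 p of 9.19 or less. Impact narrowed from 2781 to 737 bp (−1.52) and Plagl1 from 2253 to 978 bp (−0.81), and Snrpn was gained with 774 bp. Grb10, Igf2r, Peg3, Peg10, Peg12 and Sgce stayed within 1.5-fold. The WT regions of this list were weaker than most, with a median −log10 p of 18.6 against 34.7 over all genes, and in the weakest quintile of all genes the lost share was 45.5%.

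Of 35 cell cycle genes with a WT region 1, Cdkn1c, was lost (2.86%, beside 9.71% of all genes). Of 34 paired 4 were narrowed (11.8%, beside 10.5%). Mycn, a growth-promoting factor of embryonic tissue, went from 2811 to 328 bp (−2.70), the replication licensing gene Mcm2 from 2885 to 546 bp (−2.01), and the D-type cyclin genes Ccnd1 and Ccnd2 from 6245 to 1693 bp (−1.49) and from 7195 to 2252 bp (−1.28). Ccnd3, Myc, Rb1, Trp53 and Cdkn2a stayed within 1.5-fold, as did Mki67 and Plk1, and the median was 0.06. Canonical histone genes had 15 of 57 paired narrowed (26.3%, beside 10.5% of all genes), 0 widened and 2 of 61 lost, with a median of −0.34. These genes have near-identical copies, share regions with their neighbours and are uncertain.

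Most inflammatory and interferon genes with a WT region kept one in KI. Of 18 inflammatory fibroblast genes with a WT region 3 were lost (16.7%, beside 9.71% of all genes). Of 15 paired 2 were narrowed (13.3%, beside 10.5%), and the median was 0.13. The chemokine genes Ccl2 and Ccl7 and the cytokine gene Il11 were lost from WT regions with −log10 p of 5.92, 8.79 and 12.4, and Relb narrowed from 2109 to 748 bp (−1.10), whereas Il6, Cxcl12 and Has2 stayed within 1.5-fold. Of 25 interferon-stimulated genes with a WT region 1, Oas2, was lost (4%) and 1, Irf1, was narrowed (−0.70).

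Broadly expressed genes changed little. All 28 housekeeping genes found in the annotation, of 30 listed, were paired, with 1, Gpi1, narrowed and a median of 0.09. Of 79 ribosomal protein genes with a WT region 1, Rps4y2, was lost, 1 narrowed and 5 widened, led by Rps27 from 2593 to 3632 bp (0.88), and the median was 0.11. Of 24 listed genes of H3K4 methyltransferase and demethylase complexes 20 were found in the annotation. The MLL genes Kmt2a, Kmt2b, Kmt2c and Kmt2d were not found under these symbols and were left out. All 20, among them Wdr5, Ash2l, Men1 and Kdm5b, stayed within 1.5-fold, with a median of 0.20. Their median WT −log10 p was 42.2, in quintile 4 of strength, where 4.70% of all genes were narrowed. At the other extreme, 0 of 1096 olfactory receptor genes had a region in either list.

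The labelled cell type was checked on marker genes. Of 14 fibroblast markers 13 had a WT region. Col1a1, Col1a2, Col3a1, Fn1, Vim, Pdgfrb, Twist1 and Twist2 kept theirs within 1.5-fold, Pdgfra narrowed, and Dcn, Thy1 (2580 bp, −log10 p 20.8), Fap (959 bp, 6.91) and S100a4 (1891 bp, 9.07) were lost. The lost share of the fibroblast markers was therefore 30.8% (4 of 13), beside 9.71% of all genes. Regions at markers of other cell types were few in both lists: 2 of 12 epithelial, 2 of 11 endothelial, 3 of 14 immune and erythroid, 5 of 14 neural and crest, 0 of 10 muscle and 2 of 12 germ and pluripotent genes in WT, of which 1, 1, 1, 4, 0 and 2 were lost in KI. The defining markers of muscle were at 0 in both lists. The neural marker Sox2 was gained with a KI region of 4342 bp. Of the Y-linked genes, Eif2s3y (420 bp in WT, 1640 bp in KI), Ddx3y and Uty had regions in both lists, and Kdm5d was lost from 871 bp. The part of other cells in the changes was not tested.

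The class of H3K4me3 change went with H3K27ac. In WT an H3K27ac summit lay within 1 kb of a TSS at 26.1% of the lost genes (95% Wilson interval over genes 23.7% to 28.7%), and in KI at 2.43% (1.70% to 3.47%). Gained genes had the reverse, 4.88% (1.91% to 11.9%) in WT and 39.0% (29.2% to 49.9%) in KI. Narrowed genes went from 83.1% to 37.8%, genes within 1.5-fold from 95.3% to 79.6%, and widened genes from 64.3% to 67.7%. The KI list of H3K27ac was also smaller and weaker, with 29325 summits against 44918 and a median −log10 p of 11.9 against 18.5. Of the genes with a WT summit 44.3% of the narrowed, 82.8% of those within 1.5-fold and 87.4% of the widened had a KI summit.

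**Figure D5:**
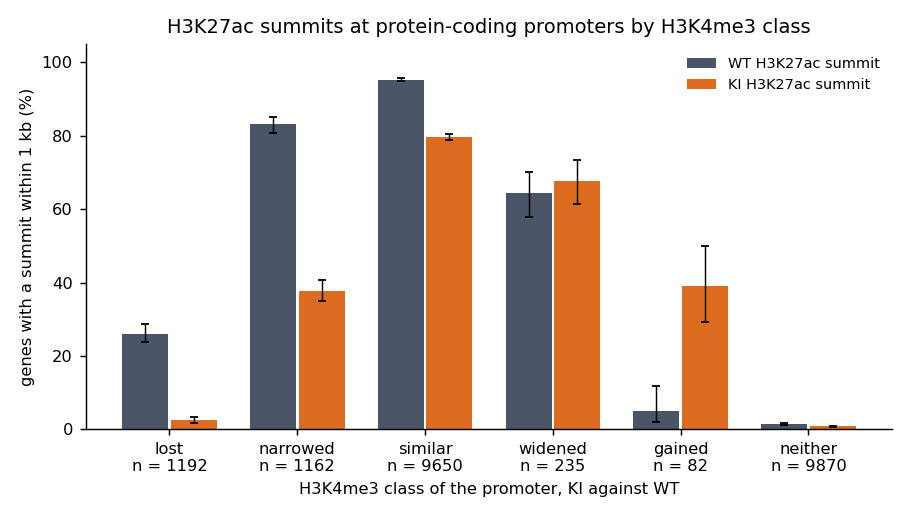
Percent of protein-coding genes with an H3K27ac summit within 1 kb of a TSS in WT and in KI (vertical axis), by class of H3K4me3 change; error bars are 95% Wilson intervals over genes, and n is the number of genes. The share falls from WT to KI in the lost, narrowed and similar (within 1.5-fold) classes, is level in the widened class and rises from 4.88% to 39.0% in the gained class.

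Prrx1 summits mapped in WT MEF were rare at promoters of any class. Of 3048 summits in the list, 1 or more lay within 1 kb of a TSS at 4 of 1192 lost genes (0.336%), 4 of 82 gained (4.88%), 25 of 1162 narrowed (2.15%), 3 of 235 widened (1.28%) and 76 of 9650 genes within 1.5-fold (0.788%), against 0.562% of all protein-coding genes. Within 10 kb the shares were 2.52%, 8.54%, 6.37%, 3.83% and 4.44%, and 3.23% over all. Prrx1 itself was the 1 gene of the study's 19 factors with a Prrx1 summit within 1 kb.

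Lost promoters were spread over the genome. Their share of the genes with a WT region ran from 6.17% on chromosome 16 to 12.4% among the autosomes and X, and chromosome Y had 4 such genes with 1 lost. In HoxB the 3 genes Hoxb13, Gm53 and Hoxb9 formed a run. Lost promoters were common in other WT fibroblasts, since 88.3% of them had a region in wound fibroblasts and 61.2% in tumour fibroblasts, against 99.8% and 98.7% of genes within 1.5-fold. Of the gained genes 61.0% had a region in wound fibroblasts and 35.4% in tumour fibroblasts, beside 6.44% and 4.43% of genes with no region in either MEF list.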

How the data were processed

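ChIP-seq libraries of MEF were analysed from peak lists, 1 per library, grouped by sample title. Reads were trimmed (Trimmomatic) and mapped to mm9 (Bowtie) by the authors, who called broad H3K4me3 regions with MACS2 against input. The deposited regions give a fold enrichment over input, which is a ratio, and a −log10 p. The deposited H3K27ac and Prrx1 summits give a −log10 p. These scores were used to describe and rank regions. TSS came from GENCODE vM1, for protein-coding genes from their protein-coding transcripts only, and gene entries of 1 symbol within 100 kb were joined. Widths of regions that join through overlaps were summed before the ratio was taken. Calls were checked on simulated lists. Sequences came from NCBIM37. Python 3.11.15, pandas 2.3.3, numpy 2.4.6, scipy 1.17.1 and matplotlib 3.10.9 were used.

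Promoters, gene lists and rules were chosen with earlier results of these data known. Named were Prrx1 and the study's MEF factors, the 10 strongest lost and gained, the 10 most narrowed and widened of at least 2 kb, the 5 widest WT promoters, and the list members that were lost, gained or changed most in width. Alternatives were a −log10 p of at least 10, lists of equal size, overlap of 50%, merging within 1 kb, regions covering the TSS, calls only above the list median, a 2-fold threshold, a median by decile of width, and 1 to 1 pairs. Interval bounds cover counting error only. Some genes and sequences are not reported here.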

Additional observations from a re-analysis of the deposited data

How the results depend on the processing

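No paired analysis was possible because each genotype had 1 library, and no replicate could be left out. The counts depend on the list strength. With only regions of −log10 p of at least 10, the WT regions absent from KI were 47.7% and the KI regions absent from WT 0.524%, the median width ratio was 0.793, and 4564 genes were lost, 14 gained, 597 promoters narrowed and 75 widened. With lists of equal size the shares were 13.0% and 6.16%, with 731 genes lost and 173 gained. Merging regions within 1 kb gave 24.4% absent from KI and a ratio of 0.772, and 1 to 1 pairs a ratio of 0.769. Regions covering the TSS gave 52 gained and 539 narrowed. Calls only above the list median left 35 lost and 5 gained, and a 2-fold threshold 441 narrowed and 61 widened. No other alternative moved a count by over 1.5 times. The 10 strongest lost promoters stayed lost under all 6 alternatives that apply to them. Most of these alternatives could not change the call. The 10 were chosen for strong WT regions with no overlapping KI region. Of the 10 named widened promoters 3 remained with lists of equal size and 1 at the −log10 p of 10, of the 10 narrowed 0 remained at that value, which all their KI regions miss, and 10 otherwise, and of the 10 gained 4 remained at that value or above the list median. Hox genes lost numbered 4 to 18 and gained 2 to 5. Prrx1 was narrowed at the −log10 p of 10 (−0.59) and with the median by decile of width (−0.63).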

Other observations

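Noncoding genes gave further values. Of 743 lincRNA genes with a WT region within 1 kb of a TSS, 100 were lost, 78 narrowed and 17 widened. A further 10 lincRNA genes, without a WT region there, were gained. Of 161 miRNA genes with a WT region 28 were lost. Among protein-coding genes 1192 of 12282 (9.71%) were lost. The following were chosen after their values were seen. Mir615, within the HoxC cluster, was lost from a WT region of 2575 bp with a −log10 p of 34.1, and the HoxB transcript Hoxb3os from 4126 bp with 38.2, both regions being those of Hoxc5 and Hoxb2. Mir210, a miRNA known to be induced by hypoxia, was lost from 815 bp with 19.4, and Mir199a-1 from 1622 bp with 10.3. Neat1, the scaffold of paraspeckles, narrowed from 10528 to 4574 bp (−0.81 on the relative log2 scale) and spanned 4949 bp in SG, while its neighbour Malat1 stayed within 1.5-fold, at 9634 and 7441 bp (0.02). Pvt1, next to Myc, stayed as well, at 3699 and 3080 bp (0.13). Because the mark has no strand and a region often covers several start sites, these regions cannot be assigned to the noncoding gene alone.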
